A study of Mus musculus with 24 samples.

Results

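The comparison sets mouse retinas at postnatal day 2 (P2) against retinas at postnatal day 0 (P0), chosen by their labels, so 4 of the 24 libraries of the series, 2 at each age, carry it. All were whole retinas of strain C57/Bl6N, and no other genotype, allele or treatment is named in the labels. The series profiled polyadenylated RNA at 12 ages with 2 libraries each, and its libraries at embryonic day 16 (E16), P4 and P6 are used here to place the P2 and P0 levels. The labels do not say whether the 2 libraries of an age came from separate animals, litters or pools, so p-values measure the spread between libraries of an age only. That spread was estimated over all 24 libraries of the series and not from P2 and P0 alone. In whole retina, a change in the number of cells of a type and a change in RNA per cell cannot be told apart.

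In the mouse, retinal neurons are born over an extended period, with ganglion cells and cones among the early types and rods, bipolar cells and Müller glia among the late ones. Around birth dividing progenitors are still abundant, and many newly born cells are becoming rods. The transcription factors Otx2 and Crx act early in photoreceptor precursors, Nrl and its target Nr2e3 direct precursors to the rod fate, and the proteins of the light response follow. Photoreceptors are known for a high rate of glycolysis, and genes of glycolysis are among the best known targets of the hypoxia-inducible factors.

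Rod genes and genes of glycolysis rose in P2 against P0, with 11 of 17 and 10 of 22 called higher, while Fgf15, the cone phosphodiesterase gene Pde6c and the retinoic acid synthesis gene Aldh1a3 were among the falls. Of 21858 genes tested, 661 (3.02%) were called higher and 210 (0.961%) lower, a call being a Benjamini-Hochberg adjusted p under 0.05 in edgeR's quasi-likelihood test together with a change of at least 2-fold. With the adjusted p alone, 2302 (10.5%) were higher and 1510 (6.91%) lower. Levels below are CPM, counts scaled to a common library size by TMM, given as P2 replicate 1 and 2 and then P0 replicate 1 and 2, and changes are log2 of P2 over P0 with their standard error (SE). The P2 libraries held more counts from genes rich in G and C, so counts and many changes are also given after a correction of each library for gene GC content. After that correction 339 genes (1.55%) were called higher and 177 (0.81%) lower. Calls that held with and without the correction and without each of the 4 libraries in turn numbered 181 higher (0.828%) and 34 lower (0.156%). Leaving out P0 replicate 2 lowered the 661 rises to 415. The 210 falls became 106 without P2 replicate 1, 131 without P2 replicate 2 and 129 without P0 replicate 2. The counts by adjusted p alone dropped by more than 1.5 times without either P2 library or P0 replicate 2, to between 1113 and 1224 rises and between 526 and 692 falls.

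Rod genes rose together. Of 17 tested, 11 were called higher and none lower, 14 were higher by the adjusted p alone, and their median log2 change was 1.44 against 0.02 over all genes tested. All 11 also held after the GC correction and without each library, and the corrected median was 1.20 against -0.04 over all genes. None of the 17 had both P2 libraries above both P0 and both P4 libraries.

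Of the early rod regulators, Nrl, the transcription factor that specifies rods, stood at 178 and 209 CPM in P2 retinas, against 79.1 and 88.2 CPM in P0 retinas, a log2 change of 1.21 (SE 0.11, adjusted p = 8.41e-06; 1.04 after the GC correction). Nr2e3, the nuclear receptor that represses cone genes in rods, stood at 395 and 450 CPM in P2 against 101 and 95.3 CPM in P0, a log2 change of 2.11 (SE 0.20, adjusted p = 8.39e-06; 1.84 corrected). For both genes the lower P2 library was above the higher P0 library, and at E16 Nr2e3 was at 0.421 and 0.371 CPM. Its P4 levels of 514 and 554 CPM were not far above those of P2.

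Among genes of the light response, Cnga1 (5:72603696-72644275, GRCm38), the alpha subunit of the rod cGMP-gated channel, was at 23.4 and 27.3 CPM in P2 retinas, against 0.476 and 0.662 CPM in P0 retinas. Its log2 change was 5.47 (SE 0.21, adjusted p = 1.22e-10; 5.65 corrected), the largest of the rod list, and it was 3.41 when the deposited transcript estimates were summed per gene in place of the gene table. It was still far below its P4 levels of 149 and 169 CPM.

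The other called rod genes covered the rest of the cascade and the outer segment. Cngb1, the beta subunit of the same channel, was at 34.4 and 57.6 CPM in P2 against 12.5 and 12.0 CPM in P0 (log2 change 1.91, SE 0.17). Pde6b and Pde6g, 2 subunits of the rod phosphodiesterase, changed by 1.44 and 1.45, and Gngt1, the gamma subunit of rod transducin, by 1.59. Sag, the arrestin of rods, was at 169 and 216 CPM in P2 against 72.0 and 71.7 CPM in P0 (1.42, SE 0.15). Rom1, a disc rim protein, changed by 1.52 and Reep6, which acts in the rod's membrane trafficking, by 2.18. The alpha subunit of rod transducin, Gnat1, was not called, with 5.70 and 5.45 CPM in P2 against 4.03 and 3.94 CPM in P0 (0.48, adjusted p = 0.31).

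Genes shared by rods and cones rose too. Of 28 symbols tested, as 29 entries of the table, 10 entries were called higher, 18 by the adjusted p alone, and none lower. Their median log2 change was 0.71 (0.58 after the GC correction). Crx, the homeodomain factor that drives many photoreceptor genes, was at 671 and 775 CPM in P2 against 358 and 334 CPM in P0 (1.06, SE 0.19, adjusted p = 0.0011), and its call was lost without P2 replicate 2, at 0.99 after the GC correction, and at 0.88 from summed transcripts. Otx2, which acts upstream of Crx, was at 793 and 895 CPM in P2 against 384 and 493 CPM in P0 and passed the adjusted p (0.0088) at a change of 0.95, under the 2-fold limit. Guca1a, a guanylate cyclase activator, changed by 2.09 (SE 0.23) and Prph2, the disc rim partner of Rom1, by 1.66. Neurod1 and Prdm1, which act in photoreceptor precursors, were not called. Prdm1 passed the adjusted p (0.0462, and 0.0493 after the GC correction) at a change of 0.51, under the 2-fold limit. Neurod1 did not, at 0.61 (SE 0.66, adjusted p = 0.584), though both its P2 libraries were above both P0 libraries. After the GC correction 9 were called: Abca4, Tulp1 and Crx were no longer among them, and Pdc and Rp1 were added. Of the 10 calls, 5 held with the correction and without each library.

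**Figure D1:**
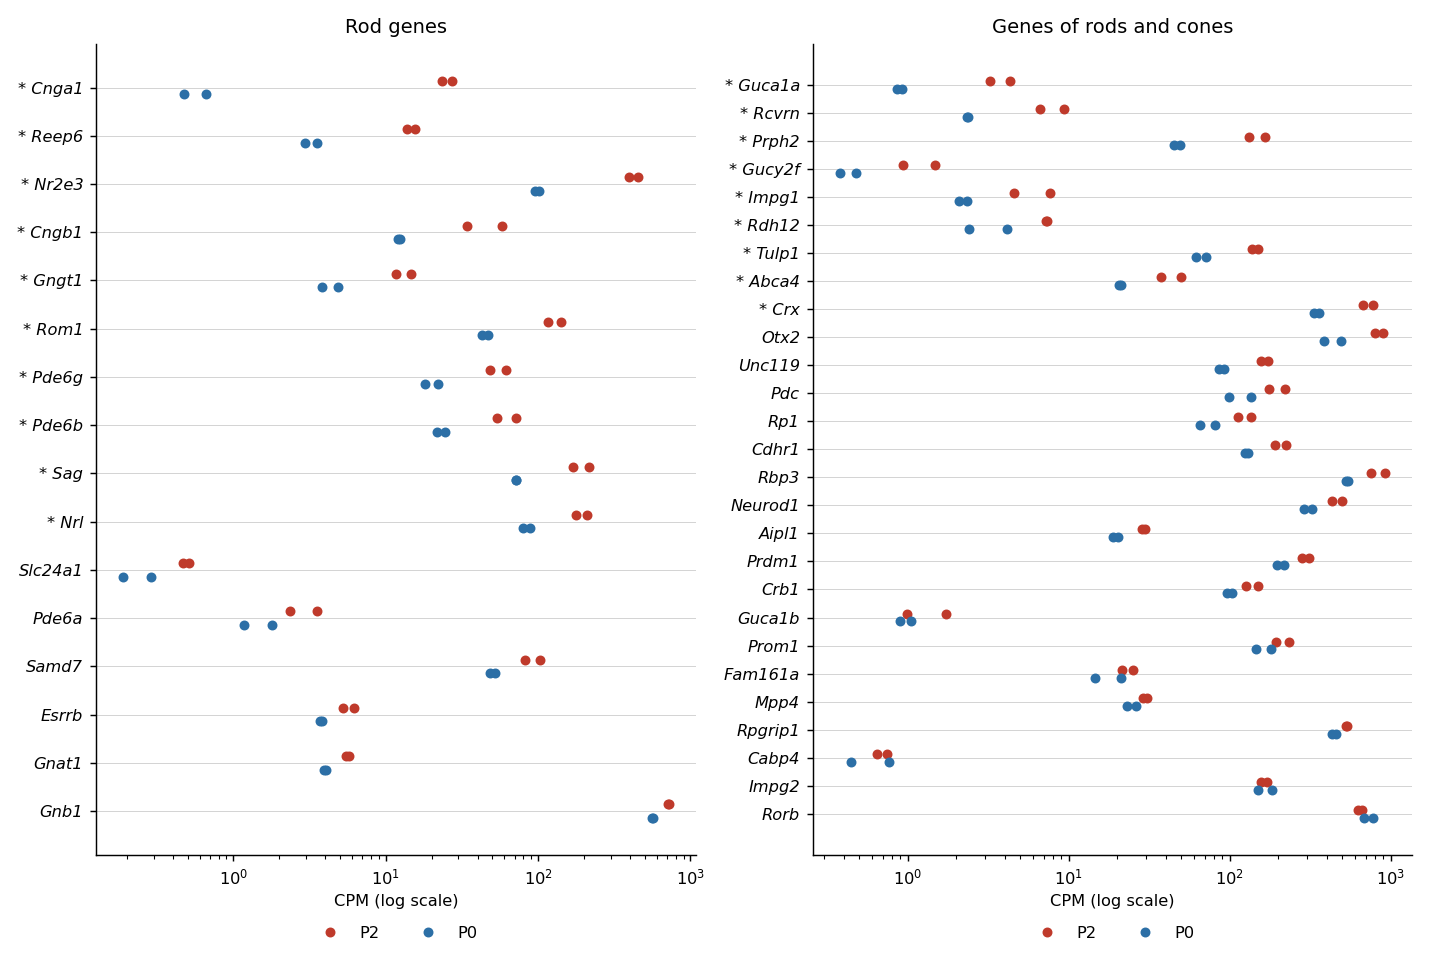
CPM (log axis) of tested rod genes (left) and genes shared by rods and cones (right) in the 2 P2 libraries (red) and the 2 P0 libraries (blue), ordered by the change, with a star on called genes. Every rod gene plotted has both P2 points to the right of both P0 points, with the largest gap at Cnga1, while the libraries of Rorb and Impg2, at the foot of the shared list, do not separate in this way.

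Cone genes gave calls in both directions. Of 15 tested, 3 were called higher and 1 lower, against 3.02% and 0.961% of all genes tested. The median log2 change was 0.17, or -0.04 after the GC correction. Gucy2e, a photoreceptor guanylate cyclase, was at 17.0 and 18.7 CPM in P2 against 5.46 and 6.94 CPM in P0 (1.53, SE 0.11), and Arr3, cone arrestin, at 3.63 and 4.77 CPM against 1.40 and 2.02 CPM (1.30, SE 0.25). Kcne2, a potassium channel subunit, was called at 1.58 on levels of 0.429 and 1.60 CPM in P2 against 0.349 and 0.347 CPM in P0, and the call was lost without P2 replicate 2 or without either P0 library. The blue cone opsin gene Opn1sw was at 123 and 134 CPM in P2 against 108 and 151 CPM in P0, so its P2 libraries lay within the P0 range (-0.02, adjusted p = 0.974).

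Pde6c, the catalytic subunit of the cone phosphodiesterase, went the other way. It was at 8.39 and 8.62 CPM in P2 retinas, against 22.9 and 27.2 CPM in P0 retinas, a log2 change of -1.56 (SE 0.13, adjusted p = 2.87e-06; -1.55 corrected), and the call held without each library. At P4 it was at 30.4 and 30.7 CPM and at E16 at 18.7 and 17.9 CPM, so the P2 libraries were the low point of these stages. Besides Pde6c, the cone genes Thrb, Cnga3 and Cngb3 had both P2 libraries below both P0 and both P4 libraries, though none of them passed the adjusted p. That pattern was found in 4 of 15 cone genes and in 15.1% of all genes tested, and after the GC correction in 2 of 15 and 13.9%.

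The windows around transcription starts were read for the letters that Crx and Otx2 are known to bind, TAATCC on either strand (GGATTA when read from the other). RefSeq windows of 300 bases, on build GRCm38.p6, were matched to 13508 tested genes, and 823 of them (6.09%) held the letters. Windows were matched for 12 of the 17 rod genes, of which 5 (41.7%) held them, and for 8 of the 11 called rod genes, of which 4 did. For the shared photoreceptor genes it was 7 of 23. Nrl, Nr2e3, Pde6b and Rom1 had no match in this window, and Pde6g had no window to read. Among the 4 called rod genes with the letters, Cnga1 holds 1 match, and its window is not shown. The following windows are those of the other 3, with the letters printed in capitals. They are Sag at chr1:87803430-87803729 on the plus strand, Cngb1 at chr8:95306536-95306835 on the minus strand and Gngt1 at chr6:3993758-3994057 on the plus strand. A match describes the letters and does not show that a factor was bound.
Sag: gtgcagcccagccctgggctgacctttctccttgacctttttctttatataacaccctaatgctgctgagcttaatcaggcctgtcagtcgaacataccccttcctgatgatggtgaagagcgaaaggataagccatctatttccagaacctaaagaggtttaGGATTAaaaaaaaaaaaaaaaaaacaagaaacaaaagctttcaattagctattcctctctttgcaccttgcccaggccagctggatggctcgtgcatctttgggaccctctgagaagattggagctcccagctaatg
Cngb1: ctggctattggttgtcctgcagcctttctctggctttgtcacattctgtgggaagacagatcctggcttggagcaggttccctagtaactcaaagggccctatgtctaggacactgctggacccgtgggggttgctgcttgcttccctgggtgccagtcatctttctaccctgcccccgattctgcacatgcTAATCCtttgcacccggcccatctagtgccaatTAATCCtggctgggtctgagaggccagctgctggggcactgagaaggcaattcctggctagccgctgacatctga
Gngt1: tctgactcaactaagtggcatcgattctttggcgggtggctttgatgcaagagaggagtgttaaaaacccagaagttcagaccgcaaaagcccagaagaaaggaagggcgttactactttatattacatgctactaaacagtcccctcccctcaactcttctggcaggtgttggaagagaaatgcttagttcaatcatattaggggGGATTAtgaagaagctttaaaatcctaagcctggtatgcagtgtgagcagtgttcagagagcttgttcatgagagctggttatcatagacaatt

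Glycolysis genes were also called higher in part. Of 22 tested, 10 were called higher, 15 by the adjusted p alone and none lower, with a median log2 change of 0.87. The GC correction lowered the median to 0.54 and the calls to 7, and 6 held in addition without each library. The summed CPM of the list was 8894 and 9115 in P2, against 4820 and 5097 in P0.

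The called members ran along the pathway. Pfkl, the liver-type phosphofructokinase, was at 208 and 203 CPM in P2 retinas, against 66.4 and 59.8 CPM in P0 retinas (log2 change 1.70, SE 0.17, adjusted p = 1.22e-05; 1.30 corrected). Aldoa, aldolase A, was at 564 and 513 CPM in P2 against 141 and 144 CPM in P0 (1.92, SE 0.16; 1.52 corrected). Tpi1, triose phosphate isomerase, was at 560 and 479 CPM in P2 against 166 and 175 CPM in P0 (1.61, SE 0.14; 1.36 corrected). For these 3 genes even the lower P2 library was well above the higher P0 library.

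Further down the pathway, Pgk1, phosphoglycerate kinase, was at 547 and 497 CPM in P2 against 213 and 267 CPM in P0 (1.12, SE 0.18), a call that was lost without P0 replicate 1. Ldha, which makes lactate, was at 968 and 993 CPM in P2 against 392 and 459 CPM in P0 (1.20, SE 0.18). Slc16a3, the monocarboxylate carrier that exports lactate, had the largest change of the list, with 63.6 and 49.0 CPM in P2 against 7.94 and 13.4 CPM in P0 (2.40, SE 0.30, adjusted p = 7.85e-05; 2.0 corrected). Pdk1, the kinase that restrains the entry of pyruvate into mitochondria, changed by 1.33, and Gpi1, Eno2 and Aldoc, called at 1.08, 1.25 and 1.04, were not called after the correction. Not every enzyme moved: Gapdh was at 473 and 591 CPM in P2 against 474 and 570 CPM in P0 (0.03), and Ldhb changed by -0.01.

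Set beside the neighbouring ages, P0 was the low point for most of the list. Both P0 libraries lay below both P2 and both E16 libraries in 15 of 22 glycolysis genes and in 12% of all genes tested. The same held for 8 of the 10 called members, and for 197 of all 661 genes called higher. These counts use CPM without the GC correction, and the pattern was not run with it. Slc16a3 was at 59.0 and 63.1 CPM at E16 and Pfkl at 205 and 181 CPM, which is close to their P2 levels. At P4 several were low again, Slc16a3 at 14.5 and 17.4 CPM and Pfkl at 78.7 and 86.5 CPM. Ldha went on to 1454 and 1424 CPM at P4. Both P2 libraries were above both P0 and both P4 libraries in 10 of the 22 (45.5%), against 19% of all genes, and after the GC correction in 5 of 22, against 11.3% of all genes. The stages before and after were compared by these library values only, and P0 enters both patterns.

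**Figure D2:**
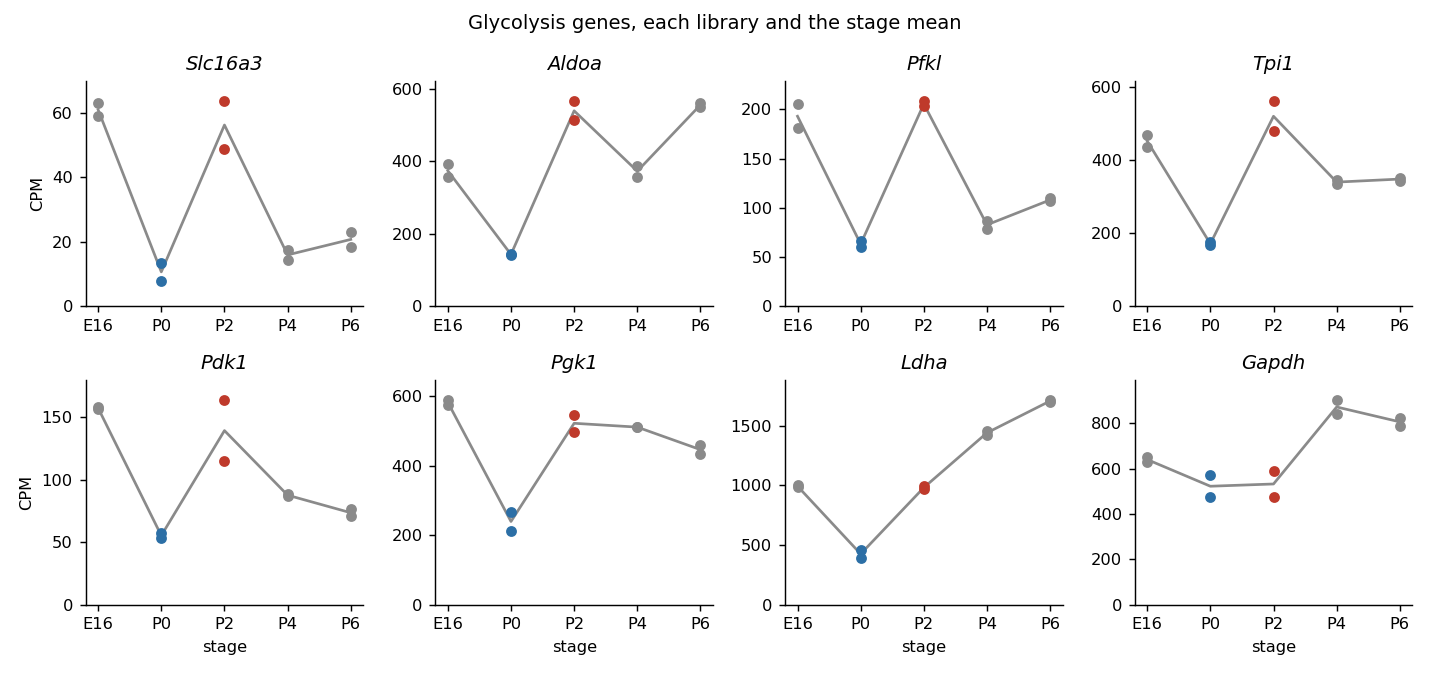
CPM of 7 called glycolysis genes and of Gapdh, which was not called, at E16, P0, P2, P4 and P6, in time order, with a point for each library and a line through the stage means. P2 libraries are red and P0 libraries blue. The 7 called genes have their lowest mean at P0, and Gapdh stays nearly level between P0 and P2.

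Genes of the response to low oxygen had the same shape. This list of 24 was chosen after values had been seen and shares Pdk1, Slc16a3, Ldha, Hk2 and Slc2a1 with the glycolysis list, so it gets no test and is not independent of it. Of the 24, 9 were called higher, against 3.02% of all genes tested, with a median of 0.65 (0.49 corrected). After the correction 7 were called, and 4 held with and without it and without each library. Without the GC correction, both P0 libraries were below both P2 and both E16 libraries in 17 of 24, against 12% of all genes. All 9 called members were among them, against 197 of all 661 genes called higher. A call already requires P0 to be lower than P2. Ndufa4l2, a mitochondrial protein induced by low oxygen, was at 109 and 87.8 CPM in P2 against 24.8 and 23.3 CPM in P0 (2.03, SE 0.16; 1.47 corrected). Vegfa, the growth factor that guides retinal vessels, was at 167 and 153 CPM in P2 against 59.0 and 81.8 CPM in P0 (1.18, SE 0.17; 1.05 corrected), a call lost without P0 replicate 1. Bnip3, of mitochondrial clearance, changed by 1.08 and Car9 and Adm, 2 widely used markers of low oxygen, by 0.04 and 0.03 at levels of at most 1.70 CPM.

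The letters ACGTG, the core of the element bound by the hypoxia-inducible factors, were searched on both strands (CACGT on the other) of the same windows. They were present in 3197 of 13508 windows (23.7%), in 10 of 21 glycolysis windows (47.6%) and in 4 of the 10 called ones. The share over all windows was not matched for window GC content, which was 73.3% for Slc16a3, 66.7% for Pgk1 and 67.3% for Ldha. Aldoa, Tpi1, Pfkl and Pdk1, which rose, had no match in this window, and Gapdh and Hk2, which were not called, had one or more. Shown are the windows of Slc16a3 (chr11:120948817-120949116), Pgk1 (chrX:106186850-106187149) and Ldha (chr7:46845554-46845853), all on the plus strand, as the called genes with 2 or more matches, in capitals. In Ldha, matches on both strands overlap in the letters CACGTG.
Slc16a3: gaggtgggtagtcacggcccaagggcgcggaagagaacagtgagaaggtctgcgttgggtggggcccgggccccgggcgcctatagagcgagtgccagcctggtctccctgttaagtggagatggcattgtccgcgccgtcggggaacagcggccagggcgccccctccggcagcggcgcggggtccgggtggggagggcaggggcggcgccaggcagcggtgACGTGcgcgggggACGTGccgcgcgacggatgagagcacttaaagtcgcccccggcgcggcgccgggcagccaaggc
Pgk1: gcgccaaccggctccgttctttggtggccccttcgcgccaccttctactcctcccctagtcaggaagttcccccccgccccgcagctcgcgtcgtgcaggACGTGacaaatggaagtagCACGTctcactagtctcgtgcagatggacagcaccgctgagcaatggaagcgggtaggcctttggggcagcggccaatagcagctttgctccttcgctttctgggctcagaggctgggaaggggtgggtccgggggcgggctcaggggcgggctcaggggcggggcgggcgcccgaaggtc
Ldha: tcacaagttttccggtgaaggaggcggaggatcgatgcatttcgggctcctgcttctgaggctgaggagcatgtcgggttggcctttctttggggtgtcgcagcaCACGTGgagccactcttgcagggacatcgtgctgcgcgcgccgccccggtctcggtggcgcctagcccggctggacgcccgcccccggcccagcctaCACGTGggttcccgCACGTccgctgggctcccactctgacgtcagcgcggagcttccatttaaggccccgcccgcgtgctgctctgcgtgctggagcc

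Among single genes, the 12 largest rises that held after the GC correction included Cnga1 and Slc16a3, given above. Lamp5, a membrane protein of neurons, was at 7.92 and 19.2 CPM in P2 against 1.11 and 0.883 CPM in P0 (3.77, SE 0.37). Entpd2, an enzyme that breaks down extracellular ATP, changed by 2.61 (SE 0.27), Slc6a2, the noradrenaline transporter, by 2.34 (SE 0.34) and Robo3, an axon guidance receptor, by 2.24 (SE 0.31). Robo3 was at 130 and 184 CPM in P2 against 39.1 and 27.5 CPM in P0, and Slc6a2 was back at 8.19 and 8.51 CPM at P4.

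Several of the largest changes rest on 1 library or on near-identical copies and are uncertain. Rps3a2 was at 152 and 0.737 CPM in P2 against 0 in both P0 libraries, and Rps3a3 at 67.0 and 0.641 CPM against 0.476 and 0.567 CPM. Both are copies of a ribosomal protein gene that were high in P2 replicate 1 only. Arhgap27 was high in P2 replicate 2 only, with 1.29 and 20.4 CPM in P2 against 0.635 and 0.410 CPM in P0. The calls of these 3 genes were lost without that library and without either P0 library. From summed transcripts Arhgap27 was at 1.32 and 1.47 CPM in P2 against 0.889 and 0.504 CPM in P0, a change of 1.00 that was not called (adjusted p = 0.149). Rbpsuh-rs3, a related sequence of Rbpj, was at 16.3 and 24.8 CPM in P2 and at 0 in P0, at least 433-fold higher against a floor of 3 counts over both P0 libraries, and DESeq2 did not call it (adjusted p = 0.068). Rbpj itself, the DNA-binding partner of Notch, was called lower, at 132 and 118 CPM in P2 against 242 and 266 CPM in P0 (-1.02, SE 0.12), a call lost at -0.87 after the correction and without P2 replicate 2 or P0 replicate 2. How the counting divided reads between the copies is not known.

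The largest falls included Fgf15, Aldh1a3, Ano1, Prss56 and Col9a1. Fgf15, a growth factor of retinal progenitors, was at 85.8 and 68.5 CPM in P2 retinas, against 180 and 256 CPM in P0 retinas (log2 change -1.5, SE 0.24, adjusted p = 0.000487; -1.63 corrected). Aldh1a3, which makes retinoic acid, was at 21.5 and 14 CPM in P2 against 56.2 and 55.7 CPM in P0 (-1.66, SE 0.21; -1.75 corrected). Ano1, a calcium-activated chloride channel, changed by -1.5, Prss56, a serine protease tied to eye size, by -1.81 and Col9a1, a chain of collagen IX, by -1.25. These 5 were lower still at P4, where Fgf15 had a mean of 14.5 CPM and Aldh1a3 at 3.81 and 4.59 CPM.

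Other falls were Ndst4, a heparan sulfate modifying enzyme, at -1.49, and Cftr, a chloride channel, at -1.51, whose call was lost without either P2 library. Rpl21 was at 37.5 and 32.1 CPM in P2 against 139 and 138 CPM in P0 (-2.0, SE 0.12). Pgk1-rs7 was at 0 and 5.57 CPM in P2 against 23.1 and 24.3 CPM in P0 while Pgk1 rose. Pgk1-rs7 is a near-identical copy of Pgk1 and Rpl21 belongs to a family with many processed copies, so the division of reads is uncertain for both. Rn18s-rs5, a ribosomal RNA sequence, changed by -1.77 and PISD, on an unplaced scaffold, by -1.74.

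Progenitor genes other than Fgf15 were not called. Of 24 tested, 0 were called higher and 1 lower, and the median was 0.09, or -0.21 after the GC correction. By the adjusted p alone 2 were higher and 5 lower, against 10.5% and 6.91% of all genes tested. After the correction it was 1 and 5, against 971 and 957 of all 21858 genes. Among the 5, Hmga2, a chromatin protein, was at 8.51 and 9.07 CPM in P2 against 16.16 and 15.98 CPM in P0 (-0.87; -0.80 corrected). Ccnd1, the cyclin of retinal progenitors, changed by -0.12, Hes1 by -0.05 and Notch1 by 0.18, each with an adjusted p above 0.7. Neurog2 and Olig2, which belong to the list of neurogenic genes, changed by -0.24 and -0.08, also with an adjusted p above 0.7. Hes5 changed by 0.82 (adjusted p = 0.208).

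No gene of cell division was called, where 0.961% of all genes tested were called lower. Of 30 mitosis genes, 8 passed the adjusted p as lower, against 6.91% of all genes tested, and the median was -0.34. After the correction 5 passed it as lower, against 957 of all 21858 genes. Kif11, a spindle motor, was at 157 and 148 CPM in P2 against 259 and 337 CPM in P0 (-0.97, SE 0.14). Mki67, a marker of cycling cells, was at 1095 and 1050 CPM in P2 against 1263 and 1402 CPM in P0 (-0.31, adjusted p = 0.247). Of 37 DNA replication genes, 0 were called and the median was -0.29. Here 11 passed the adjusted p as lower, again against 6.91% of all genes, and 10 did after the correction. Mcm4, part of the replicative helicase, was at 104 and 103 CPM in P2 against 157 and 161 CPM in P0 (-0.62, SE 0.09). Cdkn1b, an inhibitor of the cell cycle, changed by -0.05.

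Of 25 Notch pathway genes tested, 2 were called higher and 1, Rbpj, lower, against 3.02% and 0.961% of all genes tested. Both P2 libraries were above both P0 and both P4 libraries in 15 of the 25 (60%), against 19% of all genes tested. After the correction that count was 6 of 25, against 11.3% of all genes, and the median was -0.15, against 0.25 before. Numbl, an inhibitor of Notch signalling, was at 85.9 and 82.2 CPM in P2 against 40.4 and 26.4 CPM in P0 (1.33, SE 0.21; 1.05 corrected), and it kept its call in the corrected fit but not from summed transcripts, at 0.71. Nrarp, a feedback regulator of Notch, was called at 1.29, lost the call at 1.01 after the correction and lost it without either P2 library or P0 replicate 2.

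The nuclear factor I genes, regulators of late progenitors, belong to the list of temporal identity genes. Of that list 2 of 16 were called higher, against 3.02% of all genes tested. Nfic was at 81.4 and 91.3 CPM in P2 against 31.1 and 17.9 CPM in P0 (1.82, SE 0.26; 1.41 corrected). Nfix was at 86.1 and 80.3 CPM in P2 against 31.3 and 26.6 CPM in P0 (1.52, SE 0.46), a call lost after the correction and without any 1 of the 4 libraries. Nfia changed by 0.58 (adjusted p = 0.173). Of 24 neurogenic genes, Gadd45g, a stress and cell cycle gene downstream of proneural factors, rose by 1.83 (SE 0.35; 1.31 corrected). Sstr2, a somatostatin receptor, fell by 1.01 on the log2 scale, a call lost without any 1 library. The list's median was 0.14, or -0.24 after the correction.

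Genes of inner retinal neurons changed in part. Over all genes tested 3.02% were called higher, and 10.5% passed the adjusted p as higher. After the GC correction 2 of 24 amacrine, 1 of 23 bipolar and 1 of 30 synapse genes were called higher, against 1.55% of all genes. Of 24 amacrine genes 3 were called higher: Neurod2, a neuronal transcription factor, at 7.57 and 10.8 CPM in P2 against 2.13 and 1.92 CPM in P0 (2.18, SE 0.27; 1.70 corrected), Slc32a1, the vesicular transporter of GABA and glycine (1.53; 0.92 corrected and no longer called), and Meis2 (1.1; 1.25 corrected), lost without P0 replicate 1 and, at 0.49, from summed transcripts. Tfap2b and Gad1 passed the adjusted p at 0.89 and 0.61. Of 23 bipolar genes, Cacna2d4, a calcium channel subunit of photoreceptor and bipolar synapses, was at 104 and 114 CPM in P2 against 35 and 41.1 CPM in P0 (1.51, SE 0.20; 1.30 corrected), and Pcp2 was called on levels of at most 3.17 CPM and lost its call after the correction and without any 1 library. Of 30 synapse genes 3 were called, Cacna2d4, Slc17a7, a vesicular glutamate transporter (1.22; 0.83 corrected), and Cplx3, of ribbon synapses (1.04; 0.84 corrected), and 11 passed the adjusted p as higher.

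None of the 26 ganglion cell genes and none of the 10 horizontal cell genes were called. Pou4f2 changed by -0.49, Rbpms by -0.05 and Slc17a6 by 0.07. After the correction Irx2, of the ganglion cell list, was called lower (-1.11, adjusted p = 0.0284). The Müller glia list had 1 call of 20, Rlbp1, a retinoid-binding protein of Müller glia, at 121 and 138 CPM in P2 against 36.6 and 44.4 CPM in P0 (1.67, SE 0.20; 1.45 corrected), while Glul and Slc1a3, also of Müller glia, changed by -0.03 and 0.32.

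The lists of microglia, endothelium, astrocytes, mesenchyme, pericytes, red blood cells, lens and muscle had at most 1 call each. Over all genes tested 3.02% were called higher and 0.961% lower, and lists this short cannot tell their counts from those shares. Of 16 microglia genes, P2ry12 was called, at 5.46 and 3.84 CPM in P2 against 1.43 and 1.36 CPM in P0 (1.74, SE 0.32; 2.06 corrected), and Cx3cr1 was not (0.53). Of 21 endothelial genes, Egfl7 was called at 1.31 and not after the correction, and Pecam1 and Cldn5 changed by 0.11 and -0.42. Of 9 astrocyte genes, Vegfa, also counted among the genes of the response to low oxygen, was called and Gfap was not (1.25, adjusted p = 0.056). At E16 Vegfa was at 163 and 129 CPM and Gfap at 1.62 and 0.309 CPM. Which cells held the Vegfa RNA was not tested. Of 13 mesenchyme genes, Postn was called on levels of at most 2.15 CPM and lost its call without P2 replicate 1 or either P0 library. None of the 11 pericyte, 11 red blood cell, 23 lens or 11 muscle genes were called.

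Pigment epithelium genes had 1 call up and 1 down of 17. Ttr, which pigment epithelium makes in quantity, was at 3.75 and 4.16 CPM in P2 against 0.952 and 0.631 CPM in P0 (2.32, SE 0.49), a call lost without P0 replicate 2, and Best1 was called lower on levels of at most 1.17 CPM, a call lost after the correction and without P2 replicate 1 or either P0 library. Otx1, a homeobox gene, was at 0.390 and 0.769 CPM in P2 against 1.52 and 1.13 CPM in P0 and was called lower only after the correction (-1.47, adjusted p = 0.027). The summed level of the list was 57.3 and 52.5 CPM in P2 against 30.4 and 32.6 CPM in P0. Lens genes summed to 9.17 and 9.77 CPM in P2 against 28.8 and 12.4 CPM in P0, with the crystallin genes Cryga and Crygb at 0 in both P2 libraries. The part of these tissues in the results was not tested.

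The list of ribosomal protein genes does not hold Rpl21. Of its 47 genes tested, 21 passed the adjusted p as lower, against 6.91% of all genes, and 1 as higher, and Rpl27 was called lower, a call lost without P2 replicate 1 and, at -0.71, from summed transcripts. The median was -0.31, and after the GC correction it was -0.44, with 30 past the adjusted p and 3 called. Rps16 was at 91.0 and 84.5 CPM in P2 against 153 and 161 CPM in P0 (-0.84, SE 0.13). Both P2 libraries were below both P0 and both P4 libraries in 25 of 47, against 15.1% of all genes, and after the correction in 28 of 47, against 13.9%. Many of these genes have processed copies, so their own levels are uncertain. Of the 13 protein genes of the mitochondrial genome 0 were called and 5 passed the adjusted p as lower, against 6.91% of all genes. Their median was -0.38, or -0.07 after the correction, and mt-Nd3 was called higher after it (1.27). The 43 nuclear symbols of oxidative phosphorylation, as 44 entries of the table, had a median of 0.03 with 0 called.

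Of 49 replication-dependent histone symbols 20 were tested, as 21 entries of the table. Hist1h1c, a linker histone, rose, at 52.9 and 53.0 CPM in P2 against 11.9 and 12.5 CPM in P0 (2.12, SE 0.18; 1.80 corrected), as did Hist1h2bc (1.31). Hist1h2bl was called on 0.546 and 0.481 CPM in P2 against 0 in P0, at least 10.8-fold higher, and lost its call after the correction and without any 1 library. Of 18 immediate early genes, which respond quickly to stimulation, Junb, Egr1, Fos and Jun were called higher, against 3.02% of all genes tested. After the correction 1 remained called, Junb, at 1.29 and 1.28 CPM in P2 against 0.381 and 0.315 CPM in P0, and that call was lost without P0 replicate 2. The list's median was 0.86, or 0.36 corrected. Of 19 collagen and laminin genes Nid2 was called higher and Vcan and Col9a1 lower. The calls of Nid2 and Vcan were lost after the correction and without any 1 library, and Lama5, a laminin chain, was called lower after it (-1.10, adjusted p = 0.036). None of 26 cilium, 20 apoptosis or 27 hedgehog and Wnt genes were called, and Sfrp1, a Wnt inhibitor, was called lower after the correction (-1.09).

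**Figure D3:**
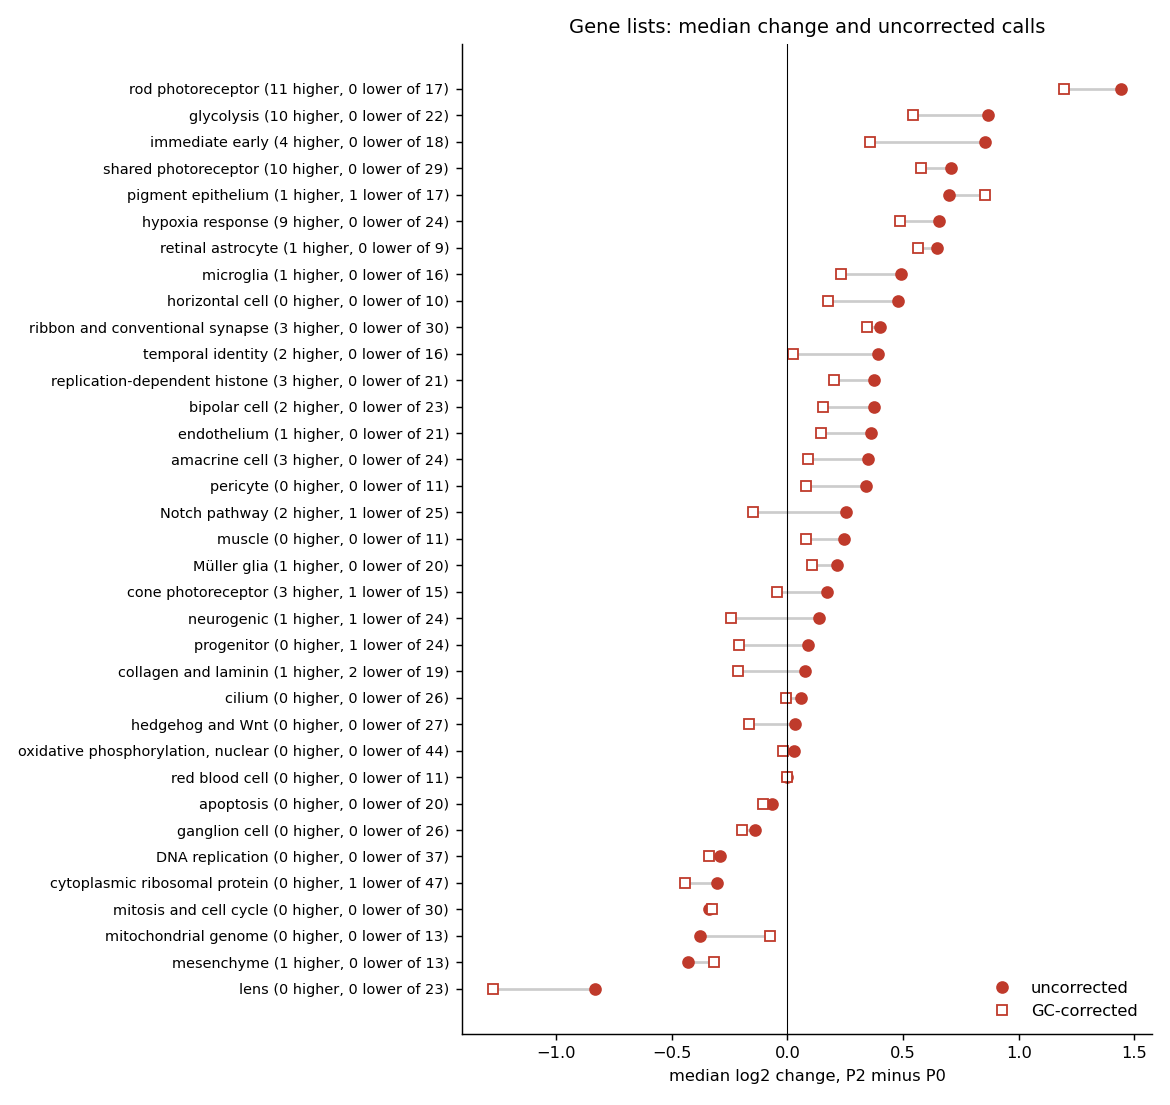
Median log2 change of P2 minus P0 in each gene list, without (filled) and with (open) the GC correction, with the number of members called without it. Rod genes lie farthest to the right at 1.44 and 1.20, and the Notch, cone, neurogenic, progenitor, collagen, hedgehog, cilium and nuclear oxidative phosphorylation lists cross 0 with the correction.

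The GC trend behind the correction was steep. Genes were ranked by the GC content of their longest transcript, known for 21616 of the 21858 tested (98.9%), and divided into 10 bins of equal size. In the lowest bin (9.3% to 40.9% GC) the median log2 change of P2 over P0 was -0.33, with 12 genes called higher and 42 lower of 2162. In the highest bin (57.5% to 75.5% GC) it was 0.50, with 204 higher and 3 lower of 2162. The difference between these medians was 0.83, and it was 0.61 to 0.95 in the 4 pairings of a P2 library with a P0 library (SD 0.17). P2 replicate 1 minus P2 replicate 2 gave 0.03 and P0 replicate 1 minus P0 replicate 2 gave 0.27, so the P2 libraries differed from P0 by more than replicates differed from each other. Across genes, which are not independent replicates, the change correlated with GC content with a Pearson coefficient of 0.25 and a Spearman coefficient of 0.43, and with transcript length with a Spearman coefficient of -0.01.

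**Figure D4:**
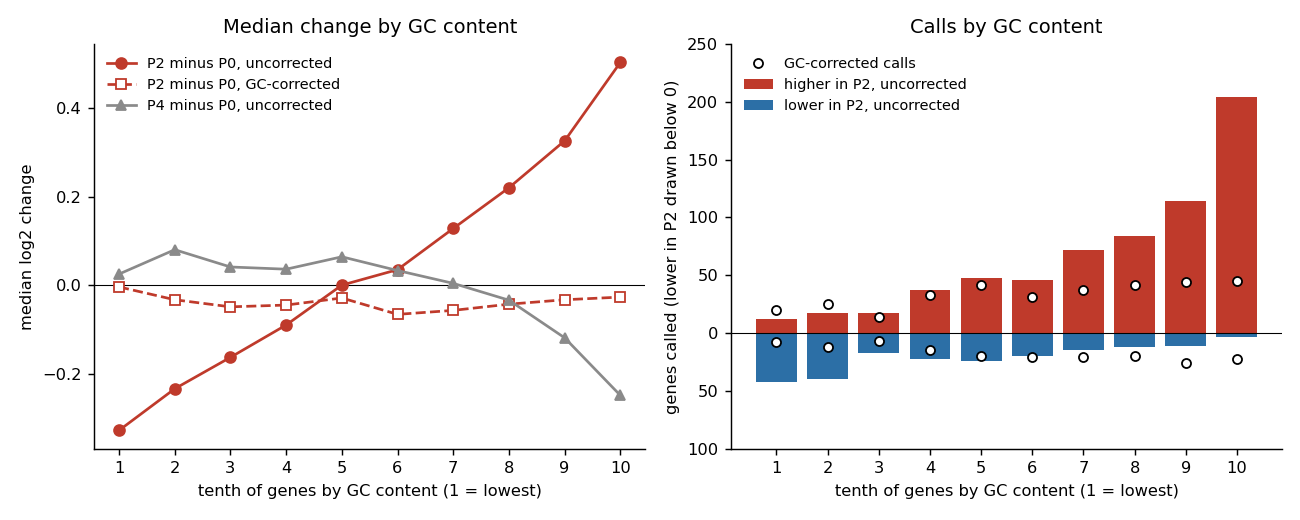
Left, median log2 change in 10 equal bins of genes by GC content for P2 minus P0 without and with the GC correction and for P4 minus P0. Right, genes called higher (red, up) and lower (blue, drawn below 0) in P2 per bin, with corrected calls as open circles. Uncorrected medians climb with GC content between -0.33 in the lowest bin and 0.50 in the highest, and called rises number 12 and 204 there.

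The trend belonged to the P2 libraries more than to those of P0. Set against each gene's mean over all 24 libraries, the median deviation in the highest bin minus that in the lowest was 0.69 and 0.64 in the 2 P2 libraries and 0.02 and -0.23 in the 2 P0 libraries. The 22 libraries other than those of P2 ran from -0.62 to 0.49, so the P2 libraries were outside the range of the rest. The mean GC content of their counts, 48.7% and 48.6%, was above that of P0, 47.8% and 47.5%, and inside the range of the other 22, 47.0% to 48.8%. P4 minus P0, which shares the P0 libraries, had a difference between the same bins of -0.27, opposite in sign.

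**Figure D5:**
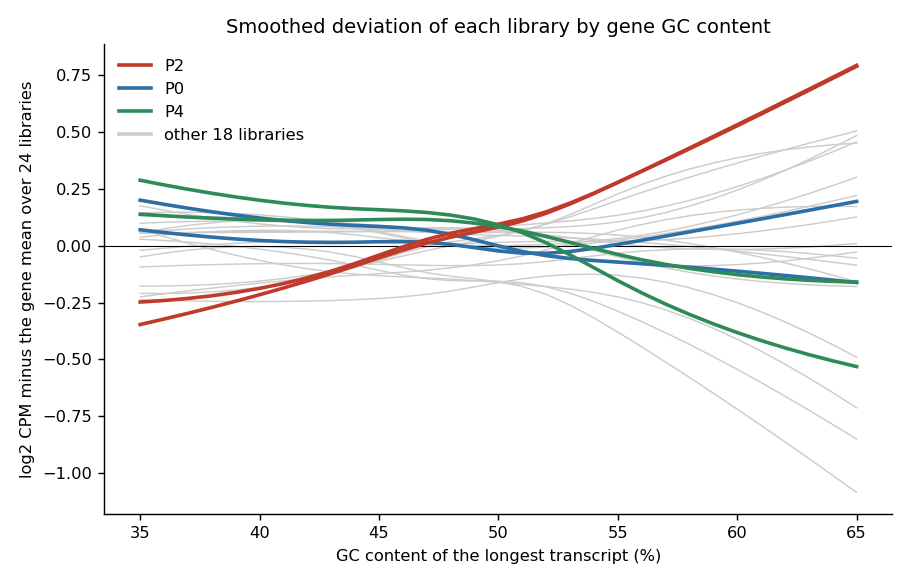
Smoothed deviation of log2 CPM from each gene's mean over the 24 libraries, by GC content of the longest transcript (%), 1 line per library. The 2 P2 lines (red) run almost on top of each other and end highest at the GC-rich side, and the P0 lines (blue) stay nearer to 0.

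Many calls rested on how GC content was treated. The correction removes any tie of the change with GC content, whether it arose in the cells or in the library, so a call lost this way is not shown to be wrong. Of the 661 rises 319 were also called after it and 342 were not, and of the 210 falls 122 were and 88 were not. The median GC content was 54.9% for the rises and 46.1% for the falls, against 49.2% for all genes, and 51.2% and 51.4% for corrected rises and falls. Processed pseudogenes made up 84 of the 661 rises and 16 of the 210 falls, against 1249 of 21858 genes tested.

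The largest rises lost in this way were Arid3c (1.90; 1.41 corrected, adjusted p = 0.0519), Egr1, Nrxn2, H1fx, Slc32a1 and Nfix. Nrxn2, a presynaptic adhesion protein with 62.4% GC, was at 68.2 and 72.7 CPM in P2 against 29.8 and 17.1 CPM in P0 (1.59; 0.96 corrected). The table lists it a further time, with the same values, on a patch scaffold. H1fx, a linker histone with 71.3% GC, was at 32.8 CPM in both P2 libraries against 13.9 and 8.35 CPM in P0 (1.56; 0.51 corrected, adjusted p = 0.388), and its call was lost without either P2 library or P0 replicate 2.

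The largest falls lost were Egfr, Vcan, Erbb4, Carnmt1, Hmgb1 and Fndc3c1. Hmgb1, a chromatin protein with 40.1% GC, was at 408 and 444 CPM in P2 against 894 and 982 CPM in P0 (-1.14, SE 0.11; -0.87 corrected, adjusted p = 0.000117), so it passed the adjusted p in both and only its fold crossed the limit. Carnmt1, which methylates carnosine, also has 40.1% GC and was at 16.5 and 17.9 CPM in P2 against 32.3 and 44.4 CPM in P0 (-1.16; -0.88 corrected). Erbb4, a neuregulin receptor, changed by -1.25, or -0.99 corrected, and -0.12 from summed transcripts. The middle 90 bases of the coding sequences of H1fx (chromosome 6, minus strand) and Carnmt1 (chromosome 19, plus strand) are shown, chosen after values were seen, to set a GC-rich gene that rose beside a GC-poor one that fell, with G and C in capitals. They are bases 238 to 327 of 564 and bases 556 to 645 of 1200, and hold 63.3% and 45.6% G and C.
H1fx: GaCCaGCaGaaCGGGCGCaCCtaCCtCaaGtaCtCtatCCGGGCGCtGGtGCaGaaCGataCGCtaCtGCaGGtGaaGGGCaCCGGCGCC
Carnmt1: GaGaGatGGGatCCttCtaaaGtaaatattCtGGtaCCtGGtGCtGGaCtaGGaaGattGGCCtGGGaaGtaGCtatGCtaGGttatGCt

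Library facts that touch these results were as follows. The P2 libraries held 24567532 and 29910073 counts and the P0 libraries 29627285 and 30221603, against 24567532 to 35898879 over all 24. Across genes the log2 CPM of replicates correlated at 0.982 in P2 and 0.985 in P0. Xist, transcribed from the inactive X chromosome, was at 4935 and 4.2 CPM in P2 against 1591 and 2455 CPM in P0, and the Y-linked gene Ddx3y at 0.429 and 91.3 CPM in P2 against 85.0 and 61.4 CPM in P0. The P2 libraries thus differ from each other in sex-linked RNA, and both P0 libraries hold Xist and Ddx3y. Of 806 genes of chromosome X, 9 were called higher and 7 lower, and of 25 of chromosome Y none. Mitochondrial counts made up 2.86% and 2.99% in P2, against 3.75% and 3.96% in P0. The part of sex-linked and mitochondrial RNA in the results was not tested.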

How the data were processed

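Polyadenylated RNA of mouse retina was sequenced at 12 ages with 2 libraries each. Per the labels' protocols, retinas were frozen, RNA was isolated with Trizol, and libraries were made to keep strand. The authors deposited estimated counts per gene and per transcript. The submitters' processing notes name kallisto 0.42.4 and edgeR 3.13.9, with build GRCm38.p5 and no role for each. The step that turned transcript estimates into gene values is not described in the sources used here. Summing the transcript estimates per gene gave a difference of 0.76 between the highest and lowest GC bins, against 0.83 from the gene table.

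Here counts were rounded and tested in R 4.3.3 with edgeR 4.0.16 (limma 3.58.1). The model had 1 coefficient per stage over all 24 libraries (12 residual degrees of freedom), with TMM scaling and filterByExpr at a minimum count of 10, which kept 21858 of 45594 genes. SE was taken as the size of the log2 change over the root of F. The GC correction is an offset from a natural spline (5 degrees of freedom) of each library's log2 CPM deviation on the GC content of the longest GENCODE transcript (GRCm38), over genes of at least 1 CPM. Patch scaffolds hold 300 genes of the table, 107 of them tested and 4 called higher, some as second copies of a gene.

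Named genes are the 12 largest rises and falls called in both fits, and the 6 called only without the correction, at 10 CPM or more in the higher stage with libraries that did not overlap. The 2 largest called changes of each of 34 lists and 35 followed genes were added, and 1 more list came later. Other genes named as examples, within the lists and beside named genes, were chosen after their values were seen. The comparison, members and lists were chosen with earlier results of these data known. A few genes that this rule takes in are not reported here. The scripts were tested on simulated data. Alternatives included DESeq2 1.42.0, other scalings and filters, and each of the 4 libraries left out. Windows and coding sequences come from RefSeq (GRCm38.p6) and GENCODE (GRCm38).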

Additional observations from a re-analysis of the deposited data

How the results depend on the processing

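The 661 rises became 339 with the GC correction, 333 with it and a replicate block, 297 with it in a fit of the 4 libraries, 370 with it on summed transcripts (an alternative chosen after seeing the data), 94 among genes of middle GC content (fewer genes tested) and 90 in a test against a 2-fold change. The 210 falls became 131 with the correction in the 4 libraries, 44 at middle GC and 11 against a 2-fold change. By adjusted p alone, the 2302 rises became 971 with the correction, 967 with it and the replicate block, 722 in the 4 libraries, 1135 on summed transcripts and 310 at middle GC, and the 1510 falls 957, 931, 666 and, at middle GC, 186. Leaving out 1 library gave 415 to 618 rises and 106 to 153 falls, or 1113 to 1641 and 526 to 1164 by adjusted p alone. The replicate block without the correction gave 658 rises and 204 falls. The labels do not say that replicate numbers pair the libraries. The replicate differences of P2 and P0 correlated at 0.035, and 8 of 66 stage pairs were over 0.1. These correlations cannot show whether libraries were prepared in pairs. DESeq2 gave 542 rises and 181 falls.

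The difference of 0.83 between the highest and lowest GC bins was -0.023 with the correction, -0.022 with it and the replicate block, -0.023 with it in the 4 libraries, -0.013 with it on summed transcripts, 0.54 with no filter, 0.74 by coding-sequence GC, and 0.67 to 0.96 without 1 library. Erbb4 turned to 0.094 (adjusted p = 0.803) on summed transcripts with the correction; the cause was not tested. GC of the gene body was not run, nor was the adjusted p alone against a 2-fold change. Of 63 named calls 43 held with the correction and 15 against a 2-fold change. Many of these genes were named because their call held or was lost with the correction, so the 43 is set in part by that choice. It does not measure how calls in general held. Among all calls, 319 rises held with the correction and 342 did not, and 122 falls held and 88 did not. The number of libraries, 2 per age, limits the precision.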
